A study of Homo sapiens with 9 samples.

Results

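The genes described here are 10 negative-feedback and output genes of the RAS-MAPK pathway: *DUSP4*, *DUSP5*, *DUSP6*, *SPRY1*, *SPRY2*, *SPRY4*, *SPRED1*, *SPRED2*, *ETV4* and *ETV5*. They were taken by symbol from the 60708 genes in the count files, and all 10 were found. Their levels came from 9 RNA-sequencing libraries of untreated cells labelled as MDA-MB-231, an established triple-negative breast cancer cell line. Of these, 3 libraries were labelled wild type (WT), and 3 each were labelled CS16 and CS19, described as a pair of *SNAI1*-KO lines that were each grown from 1 cell after CRISPR/Cas9 targeting of *SNAI1*, which encodes a transcription factor of epithelial-mesenchymal transition, and selection with puromycin. All cells were kept in DMEM with fetal bovine serum and antibiotics. Each *SNAI1*-KO line is a single clone, so the genotype, the clone and any difference in the line of origin cannot be told apart within it, and the labels do not say whether replicates were separate cultures, so p-values measure only the spread between these libraries.

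Growth factor receptors signal through RAS, RAF, MEK and ERK, and active ERK switches on genes whose products turn the same pathway down. The DUSP proteins remove phosphates from MAP kinases, and the SPRY and SPRED proteins act upstream, at the level of receptors, RAS and RAF. *ETV4* and *ETV5* encode transcription factors of the PEA3 group of the ETS family, which are themselves turned on by ERK signaling, so that the levels of these genes are widely read as a gauge of pathway output.

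Before these genes were compared, the labels were checked against the counts. *SNAI1* was not lower in the libraries labelled *SNAI1*-KO. Its level was 0.789, 2.17 and 1.08 CPM, the counts scaled to library size, in the WT libraries, 1.27, 1.91 and 1.95 CPM in the libraries labelled CS16, and 2.59, 4.08 and 3.08 CPM in those labelled CS19 (log2 fold change 0.89, adjusted p = 0.0838 after Benjamini-Hochberg adjustment, from the quasi-likelihood test of edgeR). The log2 fold change was 1.405 without WT-2 (adjusted p = 0.0146), and against WT it was 0.39 in CS16 (adjusted p = 0.474, or 0.0386 without WT-2) and 1.32 in CS19 (adjusted p = 0.0310). *CDKN2A*, *CDKN2B* and *MTAP*, genes of chromosome 9, were at 0 in the 3 WT libraries, while their summed level was 164 to 182 CPM in the other 6 libraries. The summed level of 8 markers of MDA-MB-231 cells was 6869 to 7585 CPM in the WT libraries, 548 to 569 CPM in those labelled CS16 and 518 to 556 CPM in those labelled CS19. Of these 8 markers, 7 were called lower in the 6 libraries, and *CD44* was at or under 3 counts in each of them. Markers of luminal mammary cells summed to 1456 to 2134 CPM in the WT libraries and to 56.4 to 98.6 CPM in the others, where 5 of the 6 tested were called lower and *FOXA1* higher (log2 fold change 7.94, adjusted p = 0.000138). Nephric markers summed to 75.9 to 119 and 134 to 155 CPM, with 3 of the 8 tested called higher and 2 lower. Over all genes tested, 14.3% were called lower and 12.6% higher. Without WT-2, 4 luminal markers were called lower and 1 higher, and 4 nephric markers were called higher and 2 lower. From these values it cannot be told whether the libraries labelled WT and those labelled *SNAI1*-KO come from the same cell line. Each fold change against WT below is therefore a difference between libraries so labelled, in which loss of *SNAI1* and a different line of origin cannot be told apart. The library WT-2 was unlike the other WT libraries, with 24.2% of the 19631 genes tested over 2-fold away from their mean, so counts are also given without it. The libraries held 19527195 to 28627777 counted read pairs, and a level is given as CPM scaled by TMM factors, where 3 counts correspond to 0.0982 to 0.171 CPM.

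To show where these genes begin, the bases just before a start site are printed for *DUSP6* and *SPRY1*, which had the largest and the smallest fall of the members for which the RefSeq promoter table (GRCh38.p14) held a window outside the exons of the gene itself. The table held 10 windows for 6 of the 10 genes, and none for *DUSP4*, *DUSP5*, *ETV4* and *ETV5*. Each run is 250 bases, 5′ to 3′ on the strand of the gene, and capitals mark GGAA, the core bound by ETS factors, on either strand, and TGAATG, the start of the site bound by the repressor CIC.
DUSP6, chr12:89352502-89352751, minus strand: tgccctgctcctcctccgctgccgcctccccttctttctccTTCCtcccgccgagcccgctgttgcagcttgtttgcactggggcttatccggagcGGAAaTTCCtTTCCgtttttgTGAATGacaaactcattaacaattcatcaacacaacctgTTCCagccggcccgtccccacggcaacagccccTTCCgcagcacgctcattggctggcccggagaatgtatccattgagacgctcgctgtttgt
SPRY1, chr4:123396545-123396794, plus strand: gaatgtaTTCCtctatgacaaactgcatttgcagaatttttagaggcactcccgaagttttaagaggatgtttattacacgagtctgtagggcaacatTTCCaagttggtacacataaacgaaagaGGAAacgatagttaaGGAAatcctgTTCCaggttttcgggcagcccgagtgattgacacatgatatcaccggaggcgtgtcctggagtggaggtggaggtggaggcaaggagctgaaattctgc
Motifs were searched on both strands in the 250 bases before each start. TGAATG lay in a window of *DUSP6* and in one of *SPRED2*, and in 9.91% of all 34943 windows. The ETS motif GGAAGT lay in a window of *SPRY2* and in 19.5% of all windows. TGANTCA, bound by AP-1, and the E-box CAGGTG, bound by SNAI1, lay in none of the 10 windows, against 6.59% and 17.5% of all windows. After these matches were seen, the longer CIC motif TGAATGNA, which contains TGAATG, and the shorter GGAA, which GGAAGT contains, were added. TGAATGNA lay in none of the 10 windows and in 3.23% of all, whereas GGAA lay in all 10 windows, with 2 to 6 matches each, and in 92.7% of all windows.

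All 10 genes were lower in the 6 libraries labelled *SNAI1*-KO than in the 3 WT libraries. The falls ran from less than 2-fold for *SPRY1* to 1701-fold for *SPRY4*, with a median log2 fold change of -6.00, against -0.00 over all genes tested. Of the 10, 9 fell by at least 2 on the log2 scale with an adjusted p below 0.05, a call that 14.3% of the 19631 genes tested reached in this direction. All 10 had an adjusted p below 0.05, as had 32.6% of all genes in the same direction. All 10 were also lower in each of the 6 libraries than in any WT library, as were 28.6% of all genes. Without WT-2 the number called was 8.

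**Figure D1:**
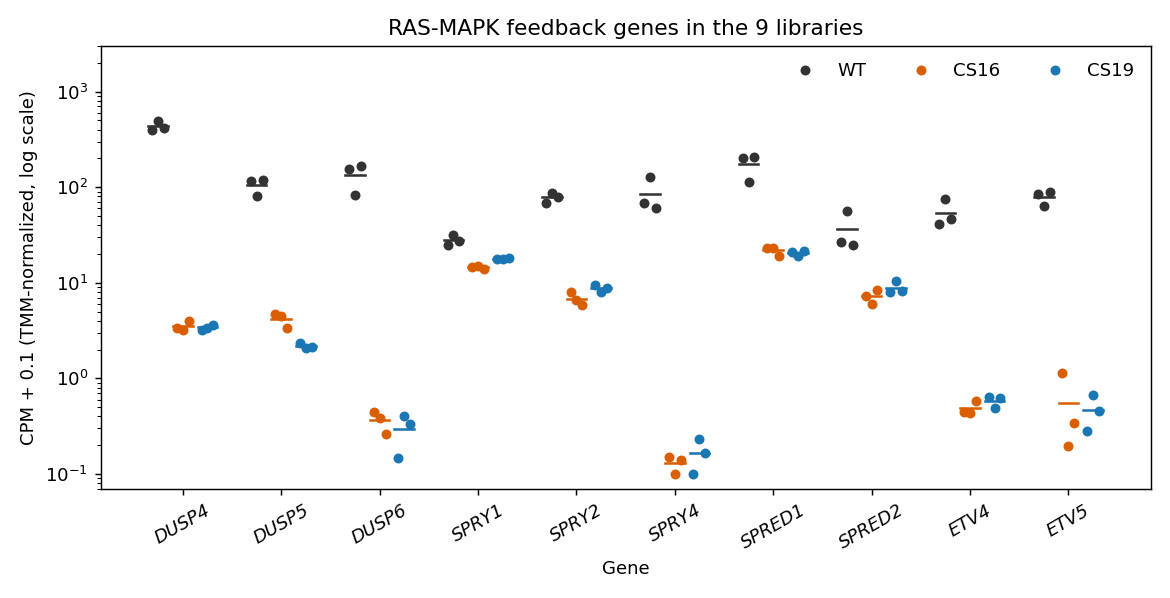
Level of each feedback gene in each of the 9 libraries, as CPM + 0.1 on a log scale, with points for libraries and short lines for group means (n = 3 per group). All 10 genes sit higher in the WT libraries than in every library labelled CS16 or CS19, and *SPRY1* shows the smallest gap.

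Among the phosphatases, *DUSP4* (ENSG00000120875.9, chr8:29333064-29350684), which encodes a nuclear phosphatase of ERK, JNK and p38, had the highest level in WT cells. It was at 395, 488 and 416 CPM in the WT libraries, 3.24, 3.10 and 3.90 CPM in those labelled CS16, and 3.14, 3.25 and 3.54 CPM in those labelled CS19. The groups were far apart and the 2 clones overlapped each other. Its log2 fold change was -7.01 ± 0.14 (SE, adjusted p = 1.19e-10, edgeR), a change that only 3.31% of all genes tested matched or went below.

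*DUSP6* (ENSG00000139318.8, chr12:89347235-89352501) encodes a cytoplasmic phosphatase that acts on ERK itself and is the most used transcript readout of ERK activity. It was at 155, 82.9 and 167 CPM in the WT libraries, with WT-2 the lowest. In the libraries labelled CS16 it was at 0.343, 0.286 and 0.159 CPM, and in those labelled CS19 at 0.0454, 0.304 and 0.229 CPM. These were 32 counts in all 6 libraries together against 7851 in the WT libraries, which made the level 609-fold lower (95% exact interval 431 to 890, counting error only). The fitted log2 fold change was -9.19 ± 0.35 (adjusted p = 1.92e-09, edgeR). Of the exonic bases of *DUSP6*, 28.6% also lie in an antisense gene, ENSG00000274021, and strand was not used in the counting, so reads from the shared 1105 bases cannot be assigned to either. The antisense gene itself had 53, 16 and 68 counts in the WT libraries and at most 1 in any other.

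*DUSP5* (ENSG00000138166.6, chr10:110497907-110511533), which encodes a nuclear phosphatase of ERK, was at 114.6, 80.0 and 118.4 CPM in the WT libraries. It was at 4.66, 4.39 and 3.30 CPM in the libraries labelled CS16 and at 2.23, 1.99 and 2.03 CPM in those labelled CS19. All 3 groups were apart from each other, with CS19 the lowest. The log2 fold change against WT was -5.08 ± 0.29 over both clones (adjusted p = 4.32e-08, edgeR).

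The SPRY genes did not move by the same amount. *SPRY4* (ENSG00000187678.10, chr5:142310427-142326455), an inhibitor of receptor signaling to RAS, was at 67.7, 129 and 59.8 CPM in the WT libraries, where WT-2 was about 2-fold above the others. It had 1, 0 and 1 counts in the libraries labelled CS16 and 0, 3 and 2 counts in those labelled CS19. The 7 counts in all against 4799 made the level 1701-fold lower (95% exact interval 825 to 4232, counting error only), and the fitted log2 fold change was -10.61 ± 0.44 (adjusted p = 3.17e-09, edgeR). It was the gene with the largest fall of the 10.

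*SPRY2* (ENSG00000136158.12, chr13:80335976-80341126), which encodes a Sprouty protein that binds GRB2 and CBL, was at 68.9, 86.9 and 79.1 CPM in the WT libraries. It was at 7.84, 6.44 and 5.81 CPM in the libraries labelled CS16 and at 9.36, 7.98 and 8.61 CPM in those labelled CS19. Neither clone came near the WT range. The log2 fold change was -3.35 ± 0.17 (adjusted p = 1.54e-08, edgeR).

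*SPRY1* (ENSG00000164056.11, chr4:123396795-123403760), which encodes another Sprouty protein, changed the least of the 10. It was at 24.9, 31.3 and 27.1 CPM in the WT libraries, 14.7, 14.7 and 13.8 CPM in those labelled CS16, and 17.4, 17.5 and 18.3 CPM in those labelled CS19. The 3 groups did not overlap, but the log2 fold change of -0.79 ± 0.15 (adjusted p = 0.000763, edgeR) stayed short of the fold needed for a call. Against WT it was -0.92 in CS16 (adjusted p = 0.00382) and -0.61 in CS19 (adjusted p = 0.0236). The CS19 value rested on the number of libraries: its adjusted p was 0.115, 0.0984 and 0.108 without CS19-1, CS19-2 and CS19-3, and 0.0672 with the replicate number as a block.

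The 3 SPRY genes thus made up different shares of the family in the 2 kinds of library. Per kilobase of exons, the level summed over *SPRY1*, *SPRY2*, *SPRY3* and *SPRY4* was 44.4 ± 8.94 CPM per kb (SD, n = 3) in the WT libraries, 5.73 ± 0.428 in those labelled CS16 and 7.19 ± 0.221 in those labelled CS19. *SPRY1* was 15.9% ± 1.29 of that sum in WT cells, 63.5% ± 3.04 in CS16 and 62.3% ± 1.98 in CS19, while *SPRY4* was 28.5% ± 6.89 of it in WT cells and at most 0.286% in any other library. *SPRY3* had 0 to 3 counts in every library and is given no fold change.

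*SPRED1* (ENSG00000166068.13, chr15:38252836-38357249), which encodes a protein that brings the RAS inactivator neurofibromin to the membrane, was at 204, 114.1 and 207 CPM in the WT libraries. It was at 23.0, 23.1 and 19.1 CPM in the libraries labelled CS16 and at 20.8, 19.2 and 21.3 CPM in those labelled CS19. The clones overlapped each other and not the WT libraries, with WT-2 the closest of those. The log2 fold change was -3.05 ± 0.18 (adjusted p = 5.13e-08, edgeR).

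*SPRED2* (ENSG00000198369.10, chr2:65310851-65432637), a second gene of the same kind, was at 26.9, 56.6 and 24.8 CPM in the WT libraries. It was at 7.26, 5.87 and 8.36 CPM in the libraries labelled CS16 and at 7.82, 10.4 and 8.05 CPM in those labelled CS19. WT-2 was 2.17-fold above the other WT libraries. The log2 fold change of -2.18 ± 0.26 (adjusted p = 1.88e-05, edgeR) rested on that library for the fold, since it was -1.70 without WT-2 (adjusted p = 4.16e-06) and no longer called.

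The ETV genes were among those with the lowest levels left. *ETV4* (ENSG00000175832.13, chr17:43527844-43579620) was at 40.7, 75.2 and 46.5 CPM in the WT libraries, 0.343, 0.334 and 0.477 CPM in those labelled CS16, and 0.545, 0.390 and 0.524 CPM in those labelled CS19. Its log2 fold change was -6.93 ± 0.25 (adjusted p = 1.34e-09, edgeR). *ETV4* shares 68 exonic bases with *DHX8* on the other strand, 1.93% of its own.

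*ETV5* (ENSG00000244405.8, chr3:186046314-186110318) was at 84.3, 63.6 and 88.9 CPM in the WT libraries. It was at 1.03, 0.0955 and 0.239 CPM in the libraries labelled CS16, where CS16-1 was the highest, and at 0.182, 0.564 and 0.3601 CPM in those labelled CS19. Its 57 counts in these 6 libraries against 4557 made the level 198-fold lower (95% exact interval 153 to 262, counting error only), and the fitted log2 fold change was -7.59 ± 0.43 (adjusted p = 4.02e-08, edgeR). *ETV5* shares 164 exonic bases with *DGKG* on the same strand, 2.84% of its own.

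Levels were compared between genes only per kilobase of exons. In the WT libraries the mean level was highest for *DUSP4* at 59.5 ± 6.67 CPM per kb (SD, n = 3), then *DUSP5* at 41.1, *DUSP6* at 35.0, *SPRY2* at 24.4, *SPRED1* at 22.6, *ETV4* at 15.4, *ETV5* at 13.7, *SPRY4* at 13.0, *SPRY1* at 7.005 and *SPRED2* at 6.56. Of the neighbours in that order, only *DUSP4* and *DUSP5*, and *SPRY4* and *SPRY1*, did not overlap over the 3 libraries. The order was another in the clones. In the libraries labelled CS16, *SPRY1* was the highest at 3.63 ± 0.127 CPM per kb, followed by *SPRED1* at 2.80 and *SPRY2* at 2.08, and the lowest were *ETV5* at 0.0787, *DUSP6* at 0.0681 and *SPRY4* at 0.00452. In those labelled CS19, *SPRY1* was again the highest at 4.48 ± 0.114, and *SPRY4* the lowest at 0.00994 CPM per kb.

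For CS16 alone and CS19 alone against WT, which share the same WT libraries, their values are given side by side. In each, 9 of the 10 genes were called lower, against 15.3% of 18611 genes for CS16 and 14.4% of 18935 genes for CS19. The median log2 fold change of the 10 was -5.79 in CS16 and -6.17 in CS19. The log2 fold changes were -6.95 and -6.99 for *DUSP4*, -4.63 and -5.60 for *DUSP5*, and -8.97 and -9.34 for *DUSP6* in CS16 and CS19. For the genes that act upstream they were -3.52 and -3.14 for *SPRY2*, -11.19 and -10.19 for *SPRY4*, -2.98 and -3.06 for *SPRED1*, and -2.31 and -2.01 for *SPRED2*. They were -7.07 and -6.74 for *ETV4*, and -7.42 and -7.68 for *ETV5*. At these low counts single libraries moved the values: *ETV5* in CS16 was at -8.77 without CS16-1, which held 21 of its 29 counts there, and *SPRY4* in CS19 was at -10.89 without CS19-2. *SPRED2* was close to the cut-off in CS19. Without WT-2 its values in CS16 and CS19 were -1.85 and -1.55 and were not called, so 8 genes were called in each clone.

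**Figure D2:**
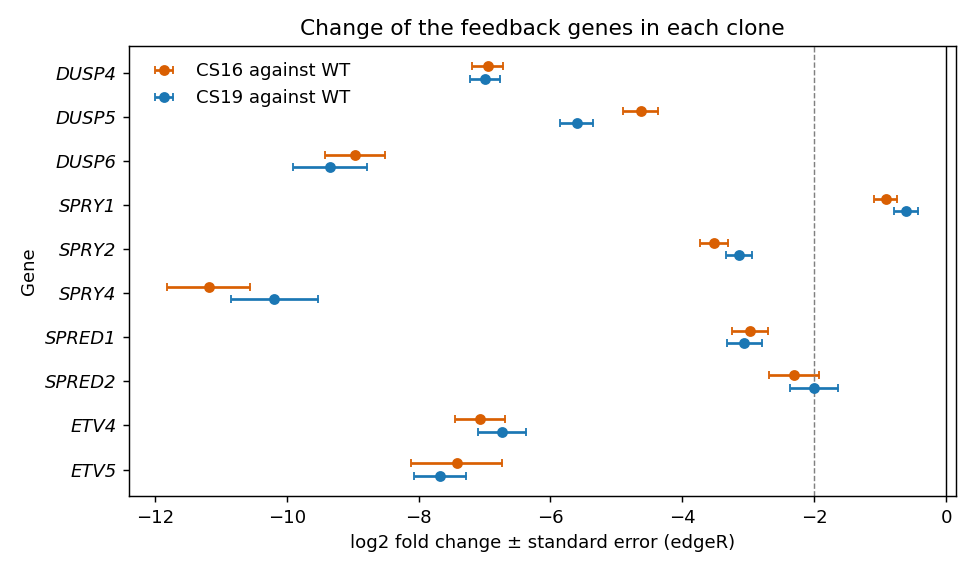
log2 fold change of each feedback gene in CS16 and in CS19 against WT, with bars for the standard error from edgeR and a dashed line at -2. *SPRED2* lies at the dashed line, *SPRY1* lies between it and 0, and *DUSP5* is the gene whose change differs most between the clones relative to its error.

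Compared directly with each other, none of these genes passed the cut-off. Of the 10, 7 passed the filter on low counts (*DUSP6*, *SPRY4* and *ETV5* did not). Of these 7, 0 were called by edgeR or DESeq2, while edgeR called 1.13% of 17538 genes. An adjusted p below 0.05, which 27.4% of all genes reached, was found for 2. *DUSP5* was higher in CS16 by 0.97 ± 0.20 on the log2 scale (SE, adjusted p = 0.00227, edgeR), and *SPRY1* was lower in CS16 (log2 fold change -0.31 ± 0.09, adjusted p = 0.0175, edgeR). The *SPRY1* value did not hold throughout, with an adjusted p of 0.0774 without CS16-3, 0.0518 without CS19-1, 0.0980 without CS19-3 and 0.0707 in DESeq2. *SPRY2* differed by -0.38 ± 0.14 (adjusted p = 0.0603), *DUSP4* by 0.04 ± 0.17, *SPRED1* by 0.08 ± 0.10, *SPRED2* by -0.29 ± 0.15 and *ETV4* by -0.33 ± 0.39.

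The other phosphatases of the MAP kinase family moved in both directions. All 7 were tested. Of these, 2 rose past the cut-off (*DUSP9* and *DUSP16*), as 12.6% of all genes did, and 1 fell past it (*DUSP10*), as 14.3% did. *DUSP7* was also lower with an adjusted p below 0.05, and 3 had no such p. By that p, 2 of the 7 were higher and 2 lower, against 31.1% and 32.6% of all genes. The median log2 fold change of the 7 was 0.21.

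*DUSP9*, which encodes a cytoplasmic phosphatase of ERK, had 1, 0 and 0 counts in the WT libraries, so its fitted fold change moved to 12.48 without WT-1. It was at 28.04, 33.9 and 32.5 CPM in the libraries labelled CS16 and at 31.4, 32.1 and 33.7 CPM in those labelled CS19. These were 4560 counts against 1, a ratio of 1838 (95% exact interval 330 to 72623, counting error only; fitted log2 fold change 10.43 ± 0.39, adjusted p = 1.68e-09, edgeR). Per kilobase, *DUSP9* was at 11.4 CPM per kb in CS16 and 11.7 in CS19, above each of the 10 feedback genes there.

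*DUSP16*, which encodes a phosphatase of JNK and p38, was at 18.1, 20.2 and 19.3 CPM in the WT libraries, 87.8, 77.3 and 85.0 CPM in those labelled CS16, and 71.3, 77.4 and 76.5 CPM in those labelled CS19 (log2 fold change 2.04 ± 0.14, adjusted p = 1.48e-07, edgeR). *DUSP10*, a gene of the same class, fell from 48.6, 32.9 and 56.4 CPM to between 3.18 and 6.52 CPM (log2 fold change -3.35 ± 0.24, adjusted p = 2.77e-07, edgeR). *DUSP7*, another ERK phosphatase gene, was at 22.6, 105 and 28.1 CPM in the WT libraries and at 13.98 to 16.9 CPM in the others. Its log2 fold change of -1.74 ± 0.38 (adjusted p = 0.00179, edgeR) was -0.71 without WT-2. *DUSP1*, *DUSP2* and *DUSP8* had log2 fold changes of 0.08, 0.21 and 0.99 over both clones and did not pass the test. For *DUSP2*, as for *DUSP1*, the clones lay on either side of the WT libraries. *DUSP2* was at 0.915 to 1.53 CPM in CS16, 0.616 to 0.740 CPM in WT and 0.318 to 0.477 CPM in CS19, with only 7 to 32 counts per library. *DUSP8* was higher by 2.29 without WT-2 (adjusted p = 5.13e-05) and was then called.

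Summed over these 10 phosphatase genes, the level per kilobase was 171.8 ± 10.1 CPM per kb (SD, n = 3) in the WT libraries, 40.7 ± 0.725 in those labelled CS16 and 34.4 ± 0.956 in those labelled CS19. *DUSP4*, *DUSP5* and *DUSP6* made up 78.8% ± 4.20 of this sum in WT cells, 5.32% ± 0.687 in CS16 and 3.86% ± 0.0655 in CS19. *DUSP16* made up 28.8% ± 2.31 in CS16 and 30.6% ± 1.14 in CS19, and *DUSP9* 27.9% ± 2.26 and 34.0% ± 0.327. *DUSP1* had 4.35% ± 0.641 in WT cells and 24.1% ± 1.56 and 17.1% ± 1.73 in the clones. These shares are descriptions of RNA levels and were not tested.

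**Figure D3:**
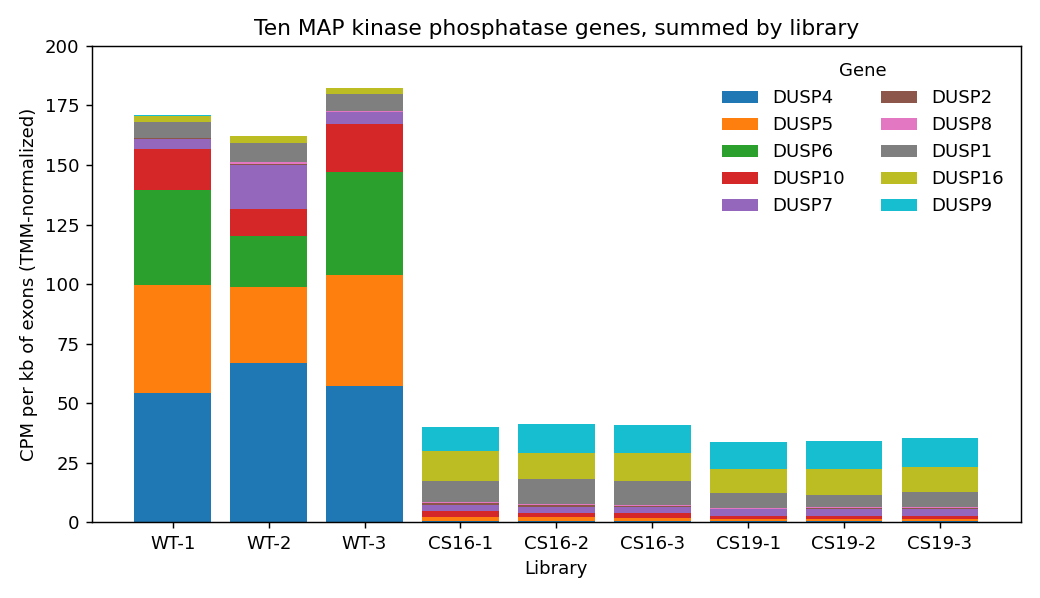
Level per kilobase of exons of 10 MAP kinase phosphatase genes, stacked for each of the 9 libraries, on an axis that starts at 0. The WT bars are made mostly of *DUSP4*, *DUSP5* and *DUSP6*, and the bars of the libraries labelled CS16 and CS19 are made mostly of *DUSP9*, *DUSP16* and *DUSP1*.

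The remaining genes of the SPRED and PEA3 families went the same way as the 10. *ETV1*, the other PEA3 gene, was at 103, 45.5 and 100.2 CPM in the WT libraries, 4.02, 4.30 and 4.42 CPM in those labelled CS16, and 2.04, 2.51 and 2.68 CPM in those labelled CS19 (log2 fold change -4.64 ± 0.31, adjusted p = 1.34e-07, edgeR). *SPRED3* was at 7.74, 22.5 and 6.62 CPM in the WT libraries and at 0.780 to 1.77 CPM in the others (log2 fold change -3.39 ± 0.40, adjusted p = 1.82e-05, edgeR), and its log2 fold change was -2.62 without WT-2. The PEA3 genes together summed to 37.7 ± 1.17 CPM per kb in the WT libraries, 0.630 ± 0.0681 in those labelled CS16 and 0.453 ± 0.0479 in those labelled CS19.

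Other genes read as ERK output were mostly lower too. Of 13 such genes, 10 were called lower (14.3% of all genes), 11 had an adjusted p below 0.05 and were lower (32.6% of all genes), and 1 (*EPHA4*) was higher, a direction in which 31.1% of all genes had such a p. Their median log2 fold change was -4.22. Without WT-2, 9 were called lower. *PHLDA1*, a gene induced by ERK, was at 299 to 366 CPM in the WT libraries and at 1.52 to 2.15 CPM in the others (log2 fold change -7.55 ± 0.16). *ELK3*, an ETS factor gene, changed by -3.12 ± 0.12 and *MAFF*, a gene of the small MAF factors, by -4.53 ± 0.18. *MYC* did not pass the test, with a log2 fold change of 0.17.

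The genes of the cascade itself mostly stayed below the cut-off, as did most genes tested. Of 17 genes from adaptors to ERK, 1 was called, *SHC1*, an adaptor of receptors (log2 fold change -2.26 ± 0.14, adjusted p = 8.03e-08, edgeR), while 3 had an adjusted p below 0.05 and were higher, 9 were lower and 5 did not pass. Over all genes 31.1% were higher and 32.6% lower by that p, and 12.6% were called higher and 14.3% lower. *MAPK3*, which encodes ERK1, was higher by 1.61 ± 0.19. The median log2 fold change of the 17 was -0.37.

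Of 8 partners of the feedback genes, 3 were higher and 2 lower with an adjusted p below 0.05, against 31.1% and 32.6% of all genes. Only 1 was called, in a direction in which 14.3% of all genes were: *CIC*, which encodes a repressor of the ETV genes (log2 fold change -2.04 ± 0.50, adjusted p = 0.00380, edgeR). It was at 46.6, 326 and 44.6 CPM in the WT libraries and at 30.5 to 37.99 CPM in the others. Without WT-2 the log2 fold change was -0.44 (adjusted p = 0.00347), and no partner was called. *NF1*, which encodes neurofibromin, was higher by 0.91 ± 0.15, and *CBL*, a ubiquitin ligase gene, changed by -1.20 ± 0.17.

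The receptors upstream changed in both directions. Of 14 receptor genes, 6 were called higher and 3 lower, against 12.6% and 14.3% of all genes, and without WT-2 it was 5 and 4. Of the 6 called higher, 1 was raised in CS16 only. It did not pass the filter on low counts in CS19 against WT, where 13 of the 14 were tested. *AXL* fell from between 1333 and 2419 CPM to at most 0.393 CPM (log2 fold change -12.54 ± 0.37, adjusted p = 4.62e-10, edgeR) and *EGFR* from between 300.2 and 665 CPM to between 12.2 and 18.9 CPM (-4.93 ± 0.24). *FGFR2* was at 0.0493 to 0.114 CPM in the WT libraries and at 34.3 to 50.4 CPM in the others (log2 fold change 8.84 ± 0.34, adjusted p = 1.96e-09, edgeR).

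**Figure D4:**
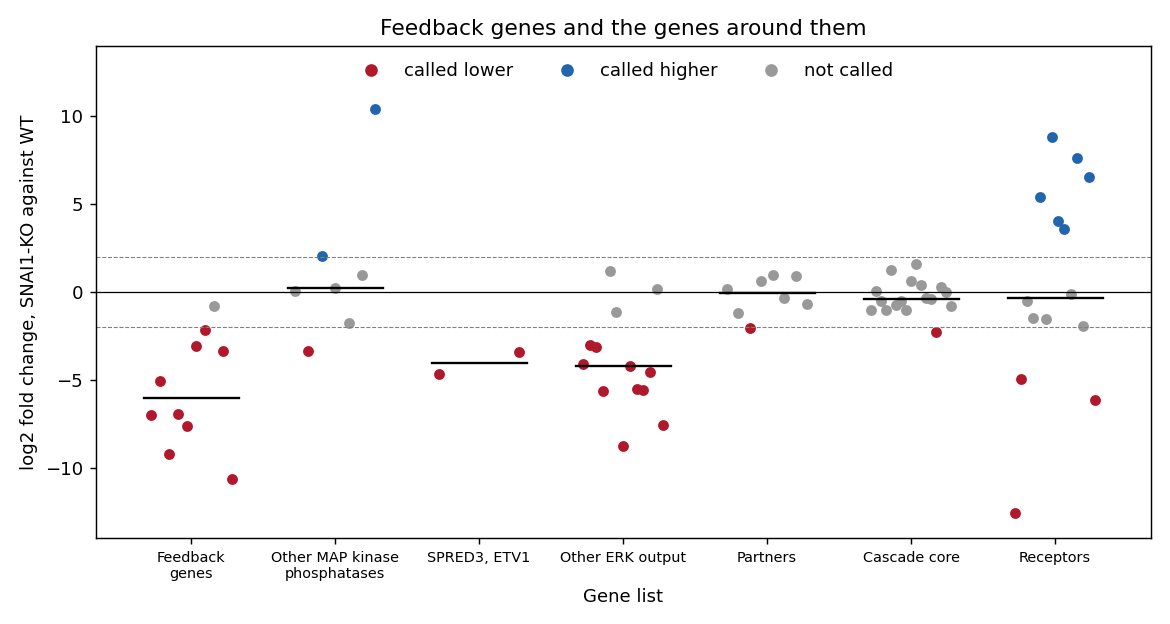
log2 fold change in the libraries labelled SNAI1-KO against WT for each tested gene of 7 lists, with black lines for medians, red for genes called lower, blue for genes called higher and grey for genes not called. The medians are -6.00 for the feedback genes, -4.22 for other ERK output, 0.21 for the other MAP kinase phosphatases and -0.37 for the cascade.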

How the data were processed

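RNA was measured in 9 libraries, and the 3 groups were taken from the labels. Per the labels and the file headers, the authors trimmed reads with Trimmomatic 0.36, aligned them to GRCh38.p13 with STAR 2.7.2b and deposited raw counts of read pairs per gene (featureCounts of Subread 2.0.0, gencode release 38, mapping quality of at least 30, strand not used). Pairs that matched more than 1 gene were not counted. Intervals were taken on counts summed over libraries, so they cover counting error only and leave out the spread between libraries. No molecular identifiers were used. The counts were filtered with filterByExpr, scaled by TMM and tested with edgeR 4.0.16 (quasi-likelihood, Benjamini-Hochberg adjustment over all genes tested). A gene was called at a log2 fold change of 2 or more in size with an adjusted p below 0.05. DESeq2 1.42.0, other normalizations and filters, a replicate block and leaving out each library were alternatives. The fits were tested on simulated data. The members and lists were chosen with earlier results of these data known, and 2 of the 6 promoter motifs were added after the matches of the others were seen. Named genes were the 10 members, all other genes of their families, and the 3 genes with the smallest adjusted p of each further list, of which 1 gene is not reported here. *SNAI1* and the chromosome 9 genes served as label checks, and *EPHA4*, *MYC* and *FOXA1* were named after their values were seen. Reads and protein sequences were not analysed here.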

Additional observations from a re-analysis of the deposited data

Results flagged for a closer look

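The clones CS16 and CS19 differed from each other in 10 of the named genes, cell type markers left aside, in the quasi-likelihood test of edgeR (Benjamini-Hochberg adjusted p below 0.05). Of all 17538 genes tested, 27.4% reached that p. *MYC* and *EPHA4* were named only after their values were seen. Each difference is given as CS16 minus CS19 on the log2 scale. Among the feedback genes it was 0.97 for *DUSP5* (adjusted p = 0.00227) and -0.31 for *SPRY1* (adjusted p = 0.0175). Among the other phosphatases it was 0.72 for *DUSP1* (adjusted p = 0.000238), 1.69 for *DUSP2* (adjusted p = 0.00276) and 0.65 for *DUSP10* (adjusted p = 0.00926). It was 0.80 for *ETV1* (adjusted p = 0.00382) and -0.46 for *FGFR2* (adjusted p = 0.00036). It was 0.65 for *MYC* (adjusted p = 0.000113), 0.46 for *EPHA4* (adjusted p = 0.000389) and -0.92 for *SNAI1* (adjusted p = 0.0106). For *DUSP1* the clones lay on either side of the WT libraries, at 17.9 CPM or more in CS16, 13.96 to 16.6 CPM in WT and 10.4 to 12.7 CPM in CS19.

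Over the 6 libraries labelled *SNAI1*-KO, *MAPK3* had a single library far from the rest. CS19-2 was at 74.1 CPM, the next library at 62.3 CPM and the lowest at 57.0 CPM, so that the gap was 0.694 of the whole range. This exceeded Dixon's 95% critical value for 6 samples, which chance alone exceeds in about 1 in 20 groups. That value is for samples of a single group, whereas these 6 libraries pool both clones, so no conclusion is drawn from it.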

How the results depend on the processing

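Against WT, the number of feedback genes called lower stayed at 8 or 9 of 10 in every comparison and under each alternative that kept the fold cut-off, and was 10 without it. With each library left out in turn it was 8 to 9. *SPRED2* was the gene that left the call. In CS19 its log2 fold change was -1.97 in DESeq2, -1.92 without a filter, -1.99 with upper-quartile normalization, and -1.89, -1.92 and -1.55 without CS19-1, CS19-3 and WT-2. Between the clones, 2 genes were called without a fold cut-off and 0 otherwise, and the difference of *DUSP4* reversed to -0.069 without CS16-3 (-0.069 to 0.11 with each library left out in turn). Without length scaling, 8 of the 10 genes changed place in the order of WT levels. The replicate numbers did not pair the samples (correlations of deviations -0.206 to 0.190). With the replicate number as a block, 9, 9, 8 and 0 genes were called for both clones, CS16 and CS19 against WT and for CS16 against CS19, with *SPRED2* at -1.91 in CS19, and 5220 genes in all against 5272 without it. DESeq2, which was given all genes without filterByExpr and applied its own default filtering, called 7681. Without a filter edgeR called 8662, without a fold cut-off 12506 and with a log2 fold change of at least 1 it called 9251. Depth limits *SPRY4*, *DUSP6* and *ETV5* in the clones, where differences between CS16 and CS19 were not detectable. The cause of these changes was not tested.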
